A study of Mus musculus with 24 samples.

Results

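A set of 10 genes that encode chemokines of monocytes and neutrophils and their receptors was followed through cultured tumor cells and whole tumors. They were Ccl2, Ccl7, Ccl8 and Ccl12 (CC ligands), Ccr1 and Ccr2 (CC receptors), and Cxcl1, Cxcl2, Cxcl3 and Cxcl5 (CXC ligands), chosen by symbol and not by their values. All 10 were found by Ensembl identifier, among 54532 genes listed for tumors and 35275 listed for cultured cells. D2.1 and D2A1 are mouse mammary tumor lines from hyperplastic alveolar nodules of female BALB/c mice, the first studied for its dormancy and the second for its rapid growth. RNA-seq covered 3 cultures per line and, from tumors implanted into the mammary fat pad (MFP) of females, 4 per line in BALB/c hosts and 5 per line in SCID-beige hosts. BALB/c mice are immunocompetent, whereas SCID-beige mice carry the Prkdc scid and Lyst bg mutations, lack T and B cells, have defective NK cells and keep their monocytes and neutrophils. The mice were young adults by the study's methods, no group received a drug, and tumors were taken at a similar size and so not necessarily after the same time of growth. Nothing in the labels says that the 3 cultures of a line were grown separately, and the study's methods describe in vitro points as technical replicates, so p-values between cultures may measure technical spread only. In whole tumors, transcripts of tumor cells and of host cells cannot be told apart, nor can fewer cells of a type and less RNA per cell.

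Chemokines are small secreted proteins that draw leukocytes along a gradient toward a tissue. Ccl2, Ccl7 and Ccl12 act on Ccr2, which lets monocytes leave the bone marrow and enter tissues, and Ccr1 is a receptor of several other CC ligands on monocytes, macrophages and neutrophils. Cxcl1, Cxcl2, Cxcl3 and Cxcl5 act on Cxcr2 and draw neutrophils, and their genes are classic targets of the transcription factor NF-kB downstream of IL-1, TNF and Toll-like receptors. In mammary tumors these ligands can come from the tumor cells, from fibroblasts or from the macrophages themselves.

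The members lie in 3 clusters of the GRCm38 genome. Ccl2 (ENSMUSG00000035385), Ccl7 (ENSMUSG00000035373), Ccl12 (ENSMUSG00000035352) and Ccl8 (ENSMUSG00000009185) lie in this order within 81.2 kb of chromosome 11, at chr11:82035571-82116799. Cxcl5 (ENSMUSG00000029371), Cxcl3 (ENSMUSG00000029379), Cxcl1 (ENSMUSG00000029380) and Cxcl2 (ENSMUSG00000058427) lie within 147 kb of chromosome 5, at chr5:90759360-90905938. Ccr1 (ENSMUSG00000025804), on the minus strand, and Ccr2 (ENSMUSG00000049103) lie within 151 kb of chromosome 9, at chr9:123962124-124113557. All 10 are protein-coding. Of the 50-base stretches of their annotated transcripts, 5.84% of those of Cxcl2 and 4.29% of those of Cxcl3 also occur in another gene, the former all in Cxcl3, so a small part of the reads of this pair may have been exchanged or dropped. For Ccr2 the share was 1.91% and for Cxcl5 0.693%, and for the other 6 members it was 0.

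Promoters (250 bases before to 50 after the start, RefSeq, build GRCm38.p6) were at hand for 7 of the 10 members, Ccl8, Ccl12, Ccr1, Ccr2, Cxcl1, Cxcl2 and Cxcl3. They were searched on both strands for an NF-kB motif read as GGGA and TTCC with any 2 bases between them, which 1.47% of all 32851 promoters of that length held. Among the 7 it was found in those of Cxcl1, Cxcl2 and Cxcl3 and not in the other 4. These sequences are shown because they hold the motif and belong to the CXC ligands, of which Cxcl1 and Cxcl3 differed between the cultured lines, and all 3 lie on the plus strand, at chr5:90890995-90891294, chr5:90903649-90903948 and chr5:90785851-90786150. Capitals mark the motif, found on both strands at overlapping positions.
Cxcl1: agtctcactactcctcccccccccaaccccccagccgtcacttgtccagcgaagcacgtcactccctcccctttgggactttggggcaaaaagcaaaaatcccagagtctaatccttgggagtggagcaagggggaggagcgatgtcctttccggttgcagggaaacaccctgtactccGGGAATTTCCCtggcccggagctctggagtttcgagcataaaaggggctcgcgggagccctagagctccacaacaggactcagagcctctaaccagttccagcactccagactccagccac
Cxcl2: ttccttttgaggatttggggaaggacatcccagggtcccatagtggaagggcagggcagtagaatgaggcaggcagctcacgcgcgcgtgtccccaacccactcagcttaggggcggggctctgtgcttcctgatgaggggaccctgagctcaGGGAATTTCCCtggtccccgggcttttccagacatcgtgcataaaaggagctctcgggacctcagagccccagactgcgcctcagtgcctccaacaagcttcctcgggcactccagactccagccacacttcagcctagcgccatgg
Cxcl3: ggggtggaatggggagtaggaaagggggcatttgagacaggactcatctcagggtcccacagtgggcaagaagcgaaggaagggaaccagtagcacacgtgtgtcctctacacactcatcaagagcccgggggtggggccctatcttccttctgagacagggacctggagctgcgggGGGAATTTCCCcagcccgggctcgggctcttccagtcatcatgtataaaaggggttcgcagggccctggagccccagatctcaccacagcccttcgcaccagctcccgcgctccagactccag
The motif began 71, 97 and 73 bases before the start of Cxcl1, Cxcl2 and Cxcl3. TATAAA, held by 13.6% of all promoters, was found in those of Ccl8, Ccl12 and Cxcl3. The AP-1 motif TGANTCA, held by 7.81%, was found in none of the 7. The C/EBP motif TTGNNNAA, held by 36.7%, was found in those of Ccl8, Ccr1, Ccr2 and Cxcl2. A match says only that these letters occur in this window.

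Between 16837260 and 24818234 reads per culture and 13566949 to 18355153 per tumor were counted on genes. Levels are given as CPM, a gene's counts per 1000000 reads of the library total after TMM scaling over all 24 libraries (factors of 0.871 to 1.10), and 3 counts corresponded to 0.139 to 0.205 CPM, a floor that covers counting error only. Cultures were nearly free of host transcripts, since 12 monocyte and macrophage markers summed to 9.34 to 31.1 CPM in the 6 cultures and to 1739.8 to 4407 CPM in the 18 tumors. In D2A1 cultures, 5 of these 12 were at 0 in every library (Adgre1, C1qa, C1qb, C1qc and Ms4a7), and in D2.1 cultures Cd68 was at 7.70 to 9.45 CPM and Cd14 at 4.98 to 9.78 CPM. The 10 neutrophil markers summed to 0.170 to 0.899 CPM in culture, with Ly6g, Retnlg and Cxcr2 at 0 in both lines, and to 30.5 to 161 CPM in tumors. Tumors and cultures were counted on different gene models. Of 19189 genes with a length implied in both tables, 22.1% had the same length, and comparisons between tables carry this limit, since batch and setting cannot be told apart.

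**Figure D1:**
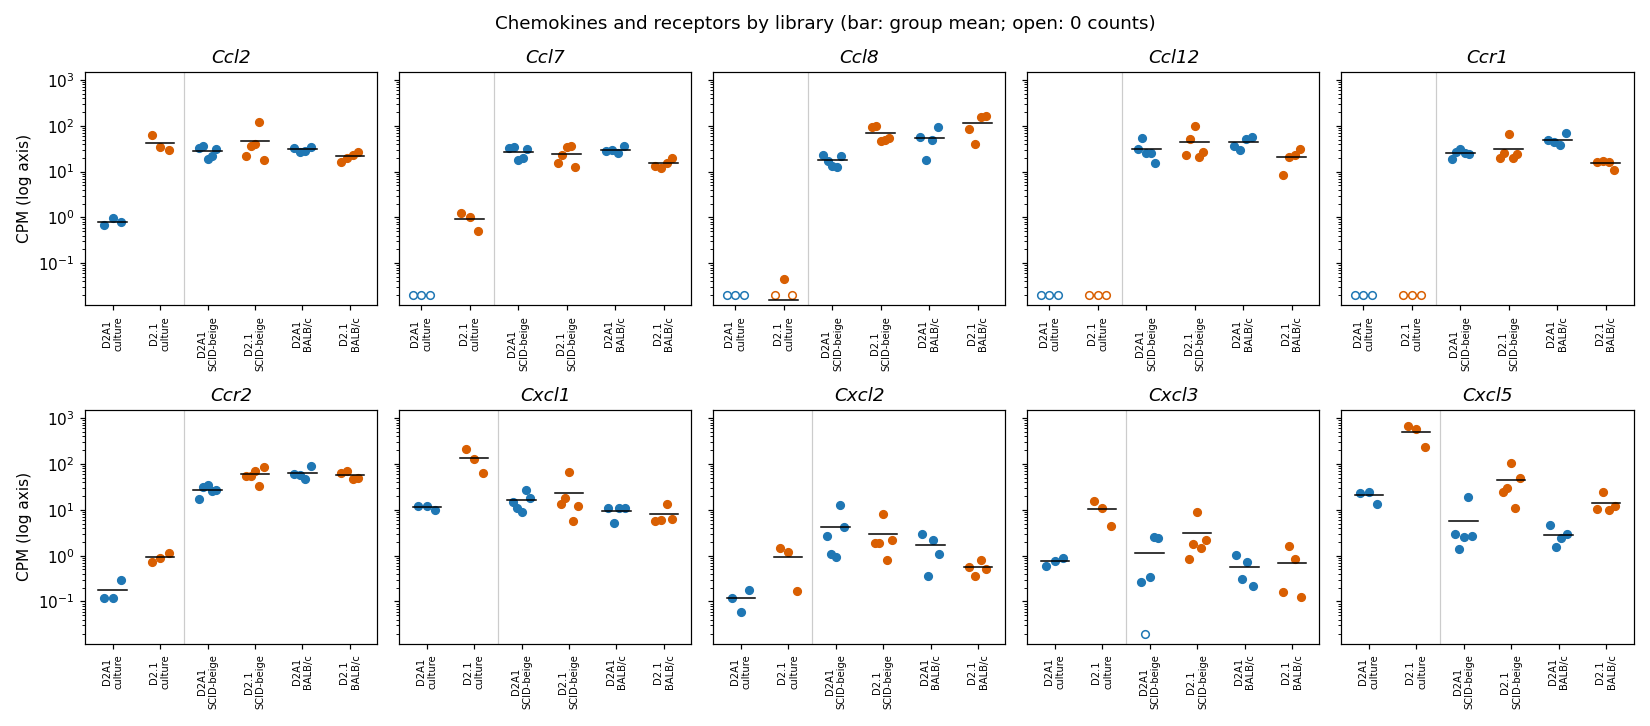
CPM (log axis) of each member in each of the 24 libraries, in 6 groups, with D2A1 in blue and D2.1 in orange, a bar at each group mean and open points for 0 counts, drawn at 0.02 CPM. Ccl12 and Ccr1 are at 0 in all 6 cultures and above 8 CPM in all 18 tumors, whereas Cxcl5 is highest in D2.1 cultures, at 235 to 667 CPM.

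In culture, D2.1 cells held more transcript of every member that could be tested. Tests were made with edgeR's quasi-likelihood method on all genes, and genes with a Benjamini-Hochberg adjusted p under 0.05 were called. All 5 testable members were called higher in D2.1, against 24.2% of 12489 genes called higher in that comparison and 44.9% called in either direction. Of these, Ccr2 had at most 5 counts in a D2A1 culture and passed the filter on low counts only through D2.1. Its direction was thus fixed in advance. Between tumors of the lines, 4 of 10 members were called in BALB/c (1 higher and 3 lower in D2.1; 32.6% of all genes), and 3 of 10 in SCID-beige, all higher in D2.1 (32.1% of all genes), which are shares near those of all genes. Between hosts, 0 of 10 were called for D2.1 (0.891% of all genes, 0.871% higher and 0.0201% lower in BALB/c) and 2 of 10 for D2A1, both higher in BALB/c (1.17% of all genes, 0.906% higher and 0.261% lower). A change of the line difference between hosts was called for 0 of the 10 (0.0187% of all genes). Against culture, 8 of 10 were called in D2.1 SCID-beige tumors, 5 higher and 3 lower (53.1% of all genes, 30.8% higher and 22.3% lower), and 8 of 10 in D2A1 SCID-beige tumors, 7 higher and 1 lower (58.1%, with 33.6% higher and 24.5% lower). Ccl8, Ccl12 and Ccr1 in both lines, and Ccl7, Ccr2 and Cxcl2 in D2A1, had at most 5 counts in any culture concerned. These passed the filter only through the tumors, so they could only be called higher. Ccl7 in D2.1, with 9 counts in culture 3, also passed only through the tumors, and its direction was largely fixed in advance. The difference between lines changed from culture to SCID-beige tumor for 3 of 7 members tested, each toward D2A1 (12.8% of all genes, 8.18% toward D2A1). Among the 3 was Ccl7, which had 0 counts in the D2A1 cultures, so its direction was largely fixed in advance.

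Ccl2, the main ligand of Ccr2, was expressed by cultured D2.1 cells far above cultured D2A1 cells, and lay between 16.4 and 119 CPM in every tumor. Its level was 63.4, 34.7 and 29.5 CPM in the D2.1 cultures and 0.668, 0.958 and 0.811 CPM in the D2A1 cultures. The groups lay far apart, with a log2 fold change of 5.73 (SE 0.38, n = 3 and 3, edgeR adjusted p = 7.4e-06). In BALB/c tumors it was 16.4, 19.9, 23.2 and 26.8 CPM for D2.1 and 32.5, 27.1, 28.1 and 34.7 CPM for D2A1. Here every D2A1 tumor was above every D2.1 tumor, by a narrow margin, and the log2 fold change of -0.50 (SE 0.19) did not pass the test (edgeR adjusted p = 0.073). It did with the replicate number as a block (edgeR adjusted p = 0.022), but nothing in the labels says that the numbers pair these tumors. In SCID-beige tumors the values were 21.8, 35.6, 39.3, 119 and 18.3 CPM for D2.1 and 32.5, 37.1, 18.6, 21.5 and 30.6 CPM for D2A1. These groups overlapped, and the log2 fold change of 0.74 (SE 0.43, edgeR adjusted p = 0.22) rested on the D2.1 tumor at 119 CPM, without which it was -0.01. D2A1 SCID-beige tumors were above D2A1 cultures by 5.07 on the log2 scale (SE 0.33, edgeR adjusted p = 3.2e-07), whereas D2.1 SCID-beige tumors and D2.1 cultures overlapped (0.11, SE 0.54, edgeR adjusted p = 0.88). The difference between lines was smaller in SCID-beige tumors than in culture by 4.97 on the log2 scale (value -4.97, SE 0.76, edgeR adjusted p = 1.7e-04).

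Ccl7, a second monocyte ligand that neighbors Ccl2, was near the detection limit in culture. It had 22, 22 and 9 counts in the D2.1 cultures, or 1.24, 1.02 and 0.509 CPM, and 0 counts in the 3 D2A1 cultures. D2.1 cultures were thus at least 5.16-fold higher, against a floor of 3 counts per library, and the gene did not pass the filter on low counts. In BALB/c tumors it was 13.1, 11.7, 15.7 and 20.0 CPM for D2.1 and 27.9, 29.5, 25.4 and 35.5 CPM for D2A1. D2A1 tumors were higher with no overlap (log2 fold change -0.96, SE 0.21, edgeR adjusted p = 0.0060), and the call held without any 1 tumor. In SCID-beige tumors the lines overlapped, at 12.7 to 36.8 CPM (median 22.9) for D2.1 and 17.97 to 34.3 CPM (median 30.7) for D2A1 (log2 fold change -0.15, SE 0.31, edgeR adjusted p = 0.75). SCID-beige tumors were above cultures by 4.70 on the log2 scale for D2.1 (SE 0.49, edgeR adjusted p = 2.2e-05) and at least 153-fold for D2A1. In both lines the gene passed the filter for this comparison only through the tumors. The change of the line difference from culture to SCID-beige tumor was called (-7.14, SE 1.25, edgeR adjusted p = 9.2e-04), but its fitted size depends on the prior count, since the D2A1 cultures were at 0. For the same reason its direction was largely fixed in advance.

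Ccl8 and Ccl12, the other ligands of the chromosome 11 cluster, were essentially tumor transcripts. Ccl12 had 0 counts in all 6 cultures, and Ccl8 had 1 count in 1 D2.1 culture and 0 in the other 5. Ccl8 was the member with the clearest line difference in SCID-beige tumors, at 94.5, 98.5, 45.7, 49.2 and 54.9 CPM for D2.1 against 23.6, 16.8, 13.1, 12.4 and 22.4 CPM for D2A1. The groups did not overlap (log2 fold change 1.95, SE 0.27, edgeR adjusted p = 1.0e-04, called without any 1 tumor). In BALB/c it was 85.3, 40.6, 159 and 167 CPM for D2.1 and 56.7, 17.8, 47.9 and 94.5 CPM for D2A1. Those groups overlapped (log2 fold change 1.06, SE 0.51, edgeR adjusted p = 0.14). The replicate block, for which the labels give no ground, gave a call (edgeR adjusted p = 9.0e-04). Within D2A1, Ccl8 was higher in BALB/c than in SCID-beige by 1.62 on the log2 scale (SE 0.38), which missed the threshold (edgeR adjusted p = 0.075) and passed it without D2A1 BALB/c tumor 2 (edgeR adjusted p = 0.011) and with DESeq2 (adjusted p = 0.0014).

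Ccl12 leaned the other way in BALB/c hosts. It was 8.37, 20.3, 23.3 and 30.6 CPM in D2.1 and 35.6, 30.2, 52.7 and 58.1 CPM in D2A1 BALB/c tumors, which overlapped by 1 tumor of each line. The log2 fold change of -1.09 (SE 0.36) was called (edgeR adjusted p = 0.039) but the call was kept in 2 of 8 fits that each left out 1 tumor, with edgeR adjusted p up to 0.090. It was kept without D2.1 tumor 4 or D2A1 tumor 2 and lost without any of the other 6. In SCID-beige tumors Ccl12 ranged from 20.7 to 101 CPM (median 26.3) for D2.1 and from 15.6 to 54.5 CPM (median 25.7) for D2A1, with no difference past the test (0.54, SE 0.44, edgeR adjusted p = 0.38). Against the floor of the cultures, SCID-beige tumors held at least 277-fold (D2.1) and 170-fold (D2A1) more Ccl12. For Ccl8 the bound was at least 98.9-fold in D2A1, and in D2.1 SCID-beige tumors the ratio to the single culture count was 3907 (95% counting interval 701 to 154334).

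The receptors moved with the host in D2A1 tumors and with the line in different hosts. Ccr1 had 0 counts in all 6 cultures. It was 16.4, 16.7, 16.5 and 10.9 CPM in D2.1 BALB/c tumors, 47.8, 44.9, 38.0 and 68.9 CPM in D2A1 BALB/c tumors, 20.0, 25.9, 64.9, 19.5 and 24.8 CPM in D2.1 SCID-beige tumors and 18.7, 26.7, 30.3, 25.1 and 24.5 CPM in D2A1 SCID-beige tumors. The lines were apart in BALB/c (log2 fold change -1.71, SE 0.23, edgeR adjusted p = 3.4e-04, called without any 1 tumor) and overlapped in SCID-beige (0.32, SE 0.31, edgeR adjusted p = 0.48). This change of the line difference between hosts was the largest of the 10 members, at -2.02 on the log2 scale (SE 0.43), and did not pass the test (edgeR adjusted p = 0.12), although DESeq2 called it (adjusted p = 0.0046). Both SCID-beige groups were far above the cultures, at least 195-fold for D2.1 and at least 140-fold for D2A1.

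Ccr2, the receptor that marks inflammatory monocytes, was found at 0.730, 0.879 and 1.13 CPM in D2.1 cultures and 0.122, 0.120 and 0.290 CPM in D2A1 cultures, the latter from 2, 2 and 5 counts. The groups did not overlap (log2 fold change 2.34, SE 0.50, edgeR adjusted p = 0.0049). The gene passed the filter on low counts only through the D2.1 cultures. In tumors it was 64.2, 70.0, 47.9 and 48.4 CPM for D2.1 in BALB/c and 60.8, 58.6, 47.5 and 92.1 CPM for D2A1 in BALB/c, which overlapped (-0.16, SE 0.23, edgeR adjusted p = 0.63). In SCID-beige it was 55.8, 54.7, 69.5, 33.4 and 84.9 CPM for D2.1 against 17.0, 31.0, 34.8, 26.0 and 27.1 CPM for D2A1. Only the lowest D2.1 tumor fell within the D2A1 range, and D2.1 was higher (1.14, SE 0.25, edgeR adjusted p = 0.0032, called without any 1 tumor). SCID-beige tumors exceeded cultures by 6.00 (SE 0.38, edgeR adjusted p = 5.4e-07) on the log2 scale for D2.1 and by 7.17 (SE 0.41, edgeR adjusted p = 1.2e-07) for D2A1.

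Between hosts, D2A1 tumors held more Ccr1 and Ccr2 in BALB/c than in SCID-beige mice. The log2 fold changes were 0.995 (SE 0.20, edgeR adjusted p = 0.039) for Ccr1 and 1.25 (SE 0.23, edgeR adjusted p = 0.028) for Ccr2, and for both genes the 4 BALB/c tumors were above the 5 SCID-beige tumors. The calls were fragile at this number of tumors. Of 9 fits that each left out 1 tumor, 1 kept Ccr1 (that without BALB/c tumor 3) and 4 kept Ccr2 (those without BALB/c tumor 2 or 3, or SCID-beige tumor 2 or 3), with edgeR adjusted p up to 0.17 for Ccr1 and 0.12 for Ccr2 in the others. In D2.1 tumors Ccr1 ran the other way, with every BALB/c tumor below every SCID-beige tumor (-0.99, SE 0.34, edgeR adjusted p = 0.28), and for Ccr2 the groups overlapped (-0.01, SE 0.24, edgeR adjusted p = 0.99). Summed monocyte and macrophage markers ranged from 2375 to 4407 CPM in D2A1 BALB/c tumors and from 1739.8 to 2663 CPM in D2A1 SCID-beige tumors, with 0 of 12 called. Their part in the receptor difference was not tested.

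Compared per length as FPKM, Cxcl5 and Cxcl1 were the members with the highest mean levels in both cultured lines. Cxcl5, a neutrophil ligand, stood at 667, 571 and 235 CPM in D2.1 cultures and at 23.3, 25.1 and 13.4 CPM in D2A1 cultures (log2 fold change 4.60, SE 0.44, edgeR adjusted p = 5.9e-05). Cxcl1 stood at 214.3, 127 and 64.7 CPM against 12.2, 11.9 and 9.74 CPM (3.62, SE 0.41, edgeR adjusted p = 1.6e-04). Cxcl3 stood at 16.0, 10.7 and 4.47 CPM against 0.608, 0.779 and 0.869 CPM (3.81, SE 0.50, edgeR adjusted p = 3.8e-04). None of these groups overlapped, and all 3 calls held without any 1 culture. D2.1 culture 3 was the lowest of its group for each of them. Cxcl2 was rare in culture, with 26, 26 and 3 counts in D2.1 and 2, 1 and 3 counts in D2A1. The ratio of the pooled counts was 8.10 (95% counting interval 3.49 to 23.0), the groups touched, and the gene did not pass the filter.

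**Figure D2:**
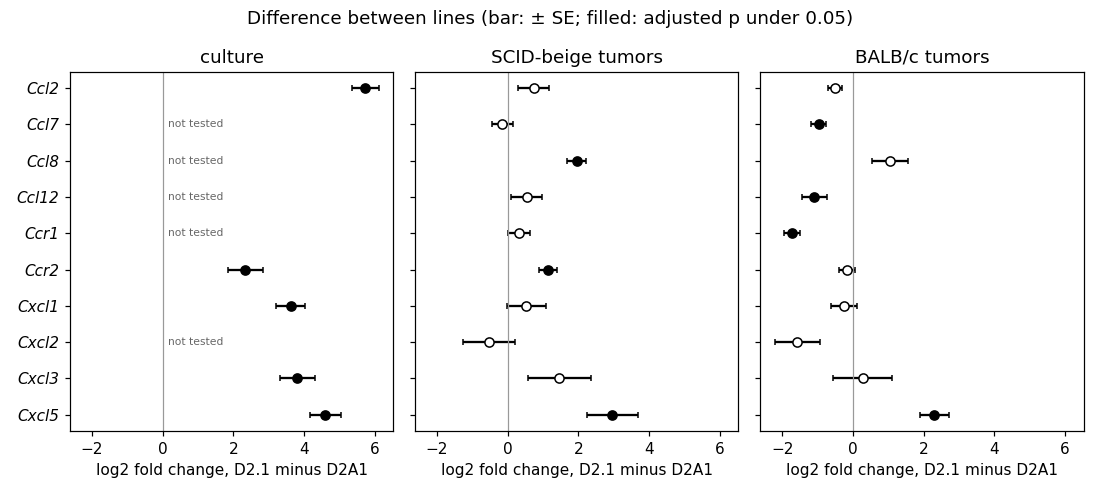
Log2 fold change of D2.1 against D2A1 (horizontal axis, bars ± SE) for each member in culture, SCID-beige tumors and BALB/c tumors, with filled points where the edgeR adjusted p was under 0.05. The tested members lie between 2.34 and 5.73 in culture, and in tumors Cxcl5 is filled on the D2.1 side in both hosts.

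Of the CXC ligands, Cxcl5 alone was called higher in D2.1 tumors of both hosts. In BALB/c it was 10.4, 24.4, 9.92 and 12.1 CPM for D2.1 and 4.68, 1.52, 2.37 and 2.94 CPM for D2A1, with no overlap (log2 fold change 2.30, SE 0.42, edgeR adjusted p = 0.0020). In SCID-beige it was 24.6, 29.3, 105, 10.9 and 50.2 CPM for D2.1 and 2.91, 1.43, 2.60, 18.7 and 2.66 CPM for D2A1. One D2A1 tumor, at 18.7 CPM, lay above the lowest D2.1 tumor, and the others lay below all of them (2.96, SE 0.73, edgeR adjusted p = 0.0071). Without a filter on low counts this last call was lost (edgeR adjusted p = 0.064). Both calls held without any 1 tumor. The difference between lines did not differ past the test between SCID-beige tumors and culture (-1.65, SE 1.02, edgeR adjusted p = 0.35).

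Cxcl1, Cxcl2 and Cxcl3 showed no line difference past the test in tumors when all were used. Cxcl1 was 5.70, 5.99, 13.7 and 6.35 CPM in D2.1 and 11.0, 5.10, 10.8 and 10.8 CPM in D2A1 BALB/c tumors, and 13.3, 17.96, 66.9, 5.72 and 12.05 CPM in D2.1 and 14.7, 11.0, 9.16, 27.4 and 18.4 CPM in D2A1 SCID-beige tumors. The lines overlapped in both hosts (log2 fold changes -0.24, SE 0.36, edgeR adjusted p = 0.65, and 0.53, SE 0.54, edgeR adjusted p = 0.49). Cxcl2 was 0.576, 0.356, 0.798 and 0.503 CPM in D2.1 BALB/c tumors and 3.02, 0.364, 2.25 and 1.09 CPM in D2A1 BALB/c tumors, from 6 to 53 counts (-1.57, SE 0.63, edgeR adjusted p = 0.082). Without D2A1 BALB/c tumor 2, at 0.364 CPM, Cxcl2 was called lower in D2.1 (-1.91, edgeR adjusted p = 0.027). In SCID-beige tumors Cxcl2 ranged from 0.818 to 8.14 CPM (median 1.87) for D2.1 and from 0.957 to 12.8 CPM (median 2.64) for D2A1. Cxcl3 was scarcer still, at 0.126 to 1.60 CPM in D2.1 BALB/c, 0.218 to 1.03 CPM in D2A1 BALB/c, 0.845 to 9.05 CPM in D2.1 SCID-beige and 0 to 2.49 CPM in D2A1 SCID-beige tumors. The lines overlapped for Cxcl3 in both hosts (0.28, SE 0.83, edgeR adjusted p = 0.83 in BALB/c, and 1.46, SE 0.89, edgeR adjusted p = 0.24 in SCID-beige).

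Relative to culture, 3 of the 4 CXC ligands fell in D2.1 SCID-beige tumors, while 5 of the 6 CC genes rose. Of these CC genes, Ccl8, Ccl12 and Ccr1 passed the filter only through the tumors and could not have fallen. Ccl7, with 9 counts in D2.1 culture 3, also passed it only through the tumors, so its direction was largely fixed in advance. D2.1 SCID-beige tumors had less Cxcl5 (log2 fold change -3.50, SE 0.61, edgeR adjusted p = 7.9e-04, no overlap), less Cxcl1 (-2.57, SE 0.67, edgeR adjusted p = 0.0080) and less Cxcl3 (-1.78, SE 0.68, edgeR adjusted p = 0.046) than D2.1 cultures. For Cxcl1 the D2.1 tumor at 66.9 CPM reached the culture range, and the other 4 were at 5.72 to 17.96 CPM. For Cxcl3 the groups overlapped too, with D2.1 SCID-beige tumor 3, at 9.05 CPM, inside the culture range of 4.47 to 16.0 CPM. Without a filter on low counts the Cxcl1 and Cxcl3 calls were lost (edgeR adjusted p = 0.059 and 0.098). The Cxcl3 call was kept in 2 of 8 fits that each left out 1 library (those without SCID-beige tumor 3 or culture 3), with edgeR adjusted p up to 0.19 in the rest. Mean CPM in D2.1 BALB/c tumors, which did not enter these tests, was lower than in culture by a factor of 34.6 for Cxcl5, 17.1 for Cxcl1 and 15.2 for Cxcl3, with no overlap. In D2A1, Cxcl5 was lower in SCID-beige tumors than in culture (-1.87, SE 0.69, edgeR adjusted p = 0.035), with the tumor at 18.7 CPM inside the culture range. That call was lost without any 1 of SCID-beige tumors 1, 3 and 5 and cultures 1 and 2 (edgeR adjusted p up to 0.094) and without a filter (edgeR adjusted p = 0.10). Cxcl2 rose in D2A1 SCID-beige tumors (5.09, SE 1.09, edgeR adjusted p = 0.0019, pooled ratio 37.9, 95% counting interval 17.2 to 104), and Cxcl1 and Cxcl3 overlapped their culture levels (0.50, SE 0.33, edgeR adjusted p = 0.21, and 0.57, SE 0.97, edgeR adjusted p = 0.64). Tumors hold host cells, so a lower level per library need not be a lower level per tumor cell, and the share of tumor cells was not measured here.

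The line difference of Cxcl1 shrank from culture to SCID-beige tumor by 3.09 on the log2 scale (value -3.09, SE 0.83, edgeR adjusted p = 0.018). The call was kept in 14 of 16 fits that each left out 1 library and lost without D2A1 culture 3 or D2.1 culture 1 (edgeR adjusted p = 0.063 and 0.068). It was also lost without a filter on low counts (edgeR adjusted p = 0.088). The value for Cxcl2 (-3.50, SE 1.40, edgeR adjusted p = 0.12) did not pass the test, but did with DESeq2 (-3.54, adjusted p = 0.041) and without D2.1 SCID-beige tumor 3 (-4.32, edgeR adjusted p = 0.033). Those for Cxcl3 (-2.37, SE 1.26, edgeR adjusted p = 0.27) and Ccr2 (-1.20, SE 0.58, edgeR adjusted p = 0.21) did not pass the test. Ccl8, Ccl12 and Ccr1 had too few culture counts in both lines for this comparison.

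In D2.1 tumors, the host difference leaned toward SCID-beige for most members without a call. The fitted log2 fold change of BALB/c against SCID-beige was below 0 for 9 of the 10 members, with a median of -1.07 against -0.01 over all 14929 genes tested, and 7 of 10 members had p under 0.05 before adjustment, as had 1489 of the 14929 genes. The largest was that of Cxcl2 (-2.35, SE 0.66, edgeR adjusted p = 0.15), for which the 4 BALB/c tumors lay below the 5 SCID-beige tumors and which DESeq2 called (adjusted p = 0.010). Cxcl3 followed (-2.12, SE 0.86, edgeR adjusted p = 0.40), then Cxcl5 (-1.59, SE 0.54, edgeR adjusted p = 0.27) and Cxcl1 (-1.50, SE 0.60, edgeR adjusted p = 0.40). Cxcl2 and Cxcl3 passed the filter on low counts only through the SCID-beige tumors. Their direction was thus largely fixed in advance, and both enter the counts and the median given above. In D2A1 tumors the 4 CXC ligands had fitted values of -0.77 to -1.36, none called, the smallest adjusted p being 0.46 for Cxcl1, and the 6 CC genes had fitted values above 0. The interaction of line and host, tested over all 4 tumor groups, called 0 of 10 members and 3 of 16036 genes, with 4 members and 1355 genes at p under 0.05 before adjustment and 1 member, Ccr1, called by DESeq2.

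**Figure D3:**
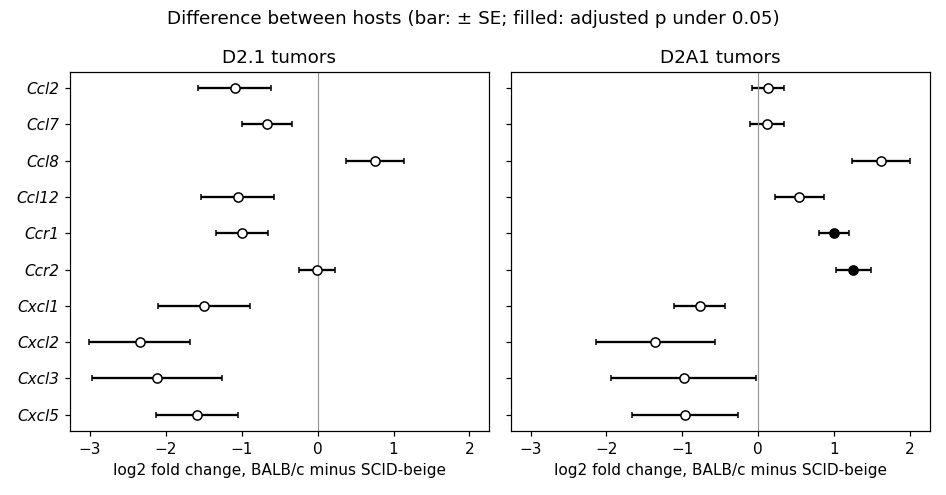
Log2 fold change of BALB/c against SCID-beige hosts (horizontal axis, bars ± SE) for each member in D2.1 and D2A1 tumors, with filled points where the edgeR adjusted p was under 0.05. The CXC ligands lie below 0 in both panels, and the 2 filled points are Ccr1 and Ccr2 in D2A1 tumors.

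Within groups, single tumors carried much of the CXC signal. D2.1 SCID-beige tumor 3 was the highest of its group for Cxcl1 (66.9 CPM), Cxcl2 (8.14 CPM), Cxcl3 (9.05 CPM), Cxcl5 (105 CPM), Ccl12 (101 CPM) and Ccr1 (64.9 CPM). D2A1 SCID-beige tumor 4 was the highest of its group for Cxcl1 (27.4 CPM), Cxcl2 (12.8 CPM), Cxcl3 (2.49 CPM) and Cxcl5 (18.7 CPM). These 2 tumors also had the highest summed neutrophil markers of the series, at 128 and 161 CPM. The other SCID-beige tumors had 44.6 to 112 CPM for D2.1 and 32.6 to 56.7 CPM for D2A1. D2.1 BALB/c tumors had 58.4 to 104 CPM of these markers, with Cxcl2 at 0.356 to 0.798 CPM and Cxcl5 at 9.92 to 24.4 CPM. In BALB/c tumors a large part of this sum came from Csf3r alone. Ngp was at 0 in D2.1 and Ly6g at 0 in D2A1 BALB/c tumors, so the sum need not follow neutrophil content. The part of neutrophil content in the ligand levels was not tested. Summed monocyte and macrophage markers of the same 2 tumors were 3502 CPM, the highest of the 5 D2.1 SCID-beige tumors (the others had 1755 to 3379 CPM), and 2429 CPM, within the range of the other D2A1 SCID-beige tumors. Without these 2 tumors, a comparison chosen after seeing the data, Cxcl5 was still called higher in D2.1 SCID-beige tumors, and the 2 receptor calls between D2A1 hosts were lost (edgeR adjusted p = 0.10 for Ccr1 and 0.081 for Ccr2).

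**Figure D4:**
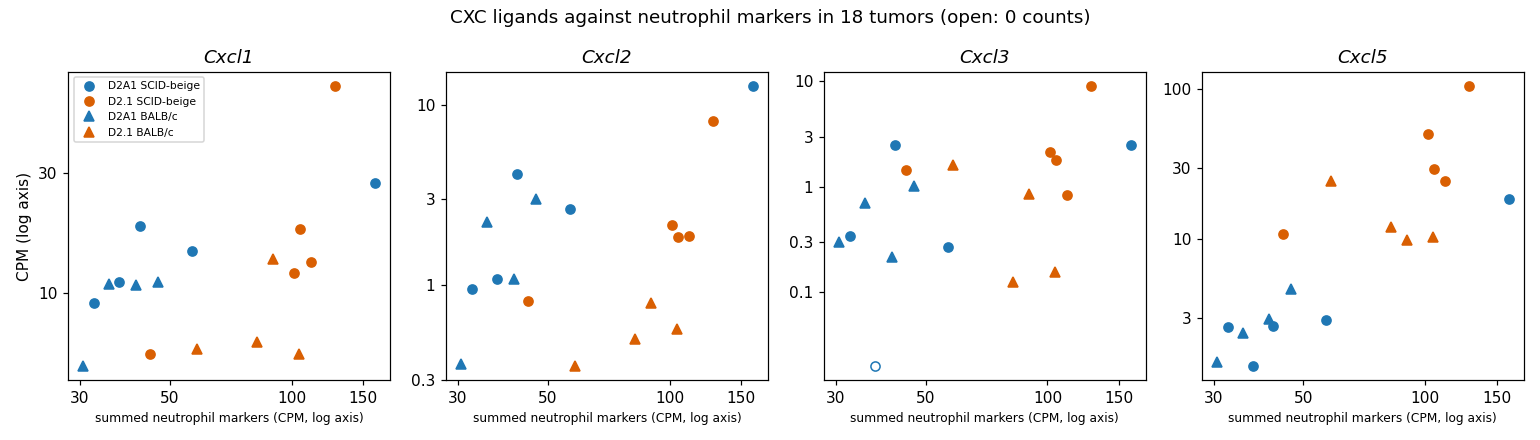
CPM of each CXC ligand (vertical log axis) against the summed CPM of 10 neutrophil markers (horizontal log axis) in 18 tumors, with circles for SCID-beige and triangles for BALB/c hosts, D2A1 in blue and D2.1 in orange, and an open circle for 0 counts. The tumors at 128 and 161 CPM of markers are the highest of their groups for all 4 ligands. D2.1 BALB/c tumors, at 58.4 to 104 CPM of markers, have Cxcl1 at 5.70 to 13.7 CPM and Cxcl2 at 0.356 to 0.798 CPM.

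The covariation among the 8 members with a mean of at least 5 CPM over the tumors, which leaves out Cxcl2 and Cxcl3, is described over the deviations of log2 CPM from the group mean in 18 tumors. Of these pairs, r was highest for Ccl2 and Ccl7 (Pearson r = 0.856, Spearman rho = 0.917, and r = 0.865 without the 2 tumors farthest from the median). Cxcl1 and Cxcl5 followed (r = 0.694), then Ccr1 with Cxcl1 (r = 0.632) and Ccr1 with Ccr2 (r = 0.626), whereas Ccl2 and Ccr2 were opposed (r = -0.592). Of 11205 genes, Il1b, which encodes interleukin-1 beta, was the second most alike to Cxcl1 (r = 0.855, rho = 0.911, r = 0.874 without 2 tumors), after Crnde (r = 0.883, rho = 0.752, r = 0.682 without 2 tumors) and before Nlrp3, an inflammasome gene (r = 0.827, rho = 0.670, r = 0.652 without 2 tumors). The gene most alike to Cxcl5 was Osmr, the oncostatin M receptor (r = 0.861, rho = 0.664, r = 0.779 without 2 tumors). For Ccr2, Ctsc, a lysosomal protease gene, was the second (r = 0.868, rho = 0.909, r = 0.909 without 2 tumors), after Ttc30b (r = 0.885) and before Zfp472 (r = 0.849). Those most alike to Ccl8, Ccl12 and Ccr1 were Mapk12, Nip7 and Gatm (r = 0.886, 0.909 and 0.842). For Ccl2 the most alike genes were Polr1b, Rxylt1 and Ldha (r = 0.935, 0.920 and 0.878), which fell to 0.765, 0.819 and 0.659 without the 2 tumors farthest from the median of Ccl2. The points share 18 libraries, and these values are descriptions of the tumors at hand, chosen as the highest among many.

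The receptor of the CXC ligands was higher in D2.1 than in D2A1 tumors of BALB/c hosts. Cxcr2 had 0 counts in all 6 cultures, and was 4.62 to 7.86 CPM in D2.1 BALB/c tumors against 0.218 to 1.88 CPM in D2A1 BALB/c tumors, with no overlap (log2 fold change 2.49, SE 0.59, edgeR adjusted p = 0.0084). In BALB/c it passed the filter on low counts only through the D2.1 tumors. The direction of this call was thus largely fixed in advance. In SCID-beige tumors it was 2.57 to 11.8 CPM for D2.1 and 0.613 to 6.14 CPM for D2A1, which overlapped (1.39, SE 0.54, edgeR adjusted p = 0.066). Cxcr1, the other receptor of this class, had at most 6 counts in any library. Csf3r, the receptor of the neutrophil growth factor G-CSF, was also higher in D2.1 BALB/c tumors (38.4 to 59.1 against 16.4 to 29.4 CPM, 1.20, SE 0.23, edgeR adjusted p = 0.0031). Both genes are in the neutrophil marker list, of which 2 of 6 tested were called higher in D2.1 BALB/c tumors and 1 of 7 in D2.1 SCID-beige tumors, with 0 lower (16.8% and 17.2% of all genes were called higher).

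Cx3cr1, the fractalkine receptor of monocytes and macrophages, and Csf1r, the macrophage growth factor receptor, were higher in D2A1 BALB/c than in D2A1 SCID-beige tumors, as Ccr1 and Ccr2 were (0.99, SE 0.18, edgeR adjusted p = 0.027, and 1.04, SE 0.19, edgeR adjusted p = 0.023). Of the lists that hold them, 2 of 13 and 1 of 7 tested were called higher and 0 lower (0.906% and 0.261% of all genes). Of the 12 monocyte and macrophage markers, 0 were called. In this comparison 170 genes were called in all, 27 to 172 with 1 tumor left out and 0 with the replicate block. Ccr3 had at most 10 counts in any library. Ackr1, a scavenger of both CC and CXC ligands on venules, was 0.0566 to 3.04 CPM in tumors and was not called between lines in BALB/c (1.26, SE 0.49, edgeR adjusted p = 0.073). Among 15 other myeloid chemokines and receptors, 3 of 13 tested were higher and 2 lower in D2.1 tumors of each host, shares near the 32.6% and 32.1% of all genes called. Cx3cl1, which encodes fractalkine, was higher in D2.1 BALB/c tumors (756 to 1530.2 against 90.2 to 152 CPM, log2 fold change 3.38, SE 0.27) and already so in culture (573 to 653 against 97.9 to 116 CPM, 2.48, SE 0.14).

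Of 20 genes of inducing cytokines, their receptors and the NF-kB pathway, 17 were tested in culture and 11 were called higher in D2.1, 0 lower (24.2% and 20.7% of all genes), with a median log2 fold change of 0.84 against -0.02 over all genes tested. The largest was Il1a, a cytokine (2.32 to 4.61 against 0 to 0.299 CPM, 4.83, SE 0.69, edgeR adjusted p = 6.1e-04). It passed the filter on low counts only through D2.1. Zc3h12a, which encodes an RNase that degrades cytokine transcripts, was at 37.7 to 78.9 against 6.49 to 6.77 CPM (3.23, SE 0.28), and Nfkbiz, an NF-kB cofactor, at 43.8 to 126 against 12.8 to 17.7 CPM (2.66, SE 0.36). In tumors 5 were higher and 2 lower in D2.1 in BALB/c, and 6 and 2 in SCID-beige, of 20 tested, shares near the 32.6% and 32.1% of all genes called. Il6 and Il17ra were those lower in both hosts. Between hosts 0 of 18 (D2.1) and 0 of 20 (D2A1) were called, where 0.891% and 1.17% of all genes were. From culture to SCID-beige tumor, the line difference of 8 of the 20 moved toward D2A1 and that of 0 toward D2.1 (8.18% and 4.62% of all genes). Il1a, Nfkbiz and Zc3h12a were among the 8. Il1b itself was at 0 to 0.225 CPM in culture and 20.0 to 74.5 CPM in tumors.

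Markers of other cell types also differed between the tumor groups. The 7 fibroblast markers summed to 3818 to 9099 CPM in D2.1 tumors and 456 to 1275 CPM in D2A1 tumors, with 7 of 7 called higher in D2.1 in BALB/c and 6 of 7 in SCID-beige (16.8% and 17.2% of all genes). The 8 T cell markers summed to 94.4 to 243 CPM in D2.1 BALB/c, 10.5 to 31.0 CPM in D2A1 BALB/c, 15.9 to 36.3 CPM in D2.1 SCID-beige and 2.53 to 6.34 CPM in D2A1 SCID-beige tumors. Between lines in SCID-beige, only Cd4 and Lck of the 8 passed the filter on low counts. In culture the 8 summed to 3.91 to 5.83 CPM for D2.1 and 2.20 to 4.19 CPM for D2A1. The sum in SCID-beige tumors thus need not follow T cell content. Of 6 endothelial markers, 3 were called lower and 1, Vwf, higher in D2.1 BALB/c tumors, and 4 lower and Vwf higher in D2.1 SCID-beige tumors (15.8% and 14.8% of all genes were called lower). Adipocyte and muscle markers were spread widely within groups, to 637 and 339 CPM at most, and milk protein genes reached 382 CPM and skin keratinocyte markers 124 CPM in D2.1 BALB/c tumors. Their part in the chemokine differences was not tested.

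Compared per length as FPKM, the order of the members turned over between culture and tumor. In D2.1 cultures, Cxcl5 (268 ± 118 FPKM, SD, n = 3) and Cxcl1 (129 ± 70.3) overlapped at the top, followed with no overlap by Ccl2 (35.4 ± 14.9) and Cxcl3 (9.31 ± 5.05). Ccl7 (1.04 ± 0.399) and Cxcl2 (0.804 ± 0.577) overlapped below them. D2A1 cultures had the same leading pair, Cxcl5 (12.2 ± 3.55 FPKM) and Cxcl1 (11.6 ± 1.21), and Ccl2 was level with Cxcl3 (0.727 ± 0.125 and 0.731 ± 0.136). In D2.1 BALB/c tumors Ccl8 led with 222 ± 117 FPKM (n = 4) and did not overlap with Ccl12 (40.5 ± 17.4), and Cxcl2 and Cxcl3 were last. In D2A1 BALB/c tumors Ccl8 (112 ± 66.5) and Ccl12 (90.9 ± 26.8) overlapped. In SCID-beige tumors Ccl8 and Ccl12 overlapped at the top in both lines, with 132 ± 47.4 and 86.9 ± 69.0 FPKM (n = 5) in D2.1 and 35.4 ± 9.79 and 60.4 ± 25.7 FPKM in D2A1. On the FPKM scale, the ratio of mean tumor to mean culture level was 0.0964 for Cxcl5 and 0.129 for Cxcl1 in D2.1 SCID-beige tumors, against 0.0897 and 0.171 on the CPM scale. For Cxcl3 the same ratio was 0.147 on the FPKM scale and 0.295 on the CPM scale.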

How the data were processed

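RNA of cultured cells and of snap-frozen whole tumors was sequenced and aligned by a service of the authors, and the submitters' processing notes name STAR and mm10, without versions. The deposited tables give, for each library, raw read counts per Ensembl gene and FPKM, which the authors computed from the counts, the length of each gene and the library total. Cells and tumors are in separate tables with 34519 genes in common. All 24 libraries were mapped to a group by their labels, and no other column of sample values was present. The members and gene lists were chosen with earlier results of these data known.

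Counts were tested with edgeR 4.0.16 (R 4.3.3, TMM scaling, filterByExpr, quasi-likelihood), each comparison fitted on the libraries of its own groups and adjusted over all genes tested by the Benjamini-Hochberg method, and the procedure was tested on simulated data. Levels in CPM were scaled with TMM factors of all 24 libraries, from genes in both tables, whereas the deposited FPKM were not. SE is the log2 fold change's standard error from the fit. All members are named, and from each list up to 4 called genes with the largest fold, a mean of at least 1 CPM and no overlap, plus the partners Cxcr1, Cxcr2, Ackr1 and Ccr3, some genes of the lists not being reported here. Il17ra in BALB/c, Il6 in SCID-beige tumors, Il1b and the genes named only in a count were added after their values were seen. For likeness, genes with a mean of at least 5 CPM were used. DESeq2 1.42.0, other filters and scalings, a replicate block and leaving out each library were alternatives. Leaving out the 2 tumors with the highest Cxcl2 and Cxcl3 of their groups, and a gene length offset, were chosen after seeing the data.

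Same-numbered libraries were checked for pairing by the correlation of their deviations from the group means. It was 0.184 to 0.491 between cultures, 0.100 to 0.491 between lines in BALB/c and 0.131 to 0.273 between D2A1 tumors and cultures. It reached below 0 in each of the other 4 comparisons checked. Nothing in the labels says that equal numbers mark a shared batch or animal, and cultures and tumors are separate material. The replicate block is thus an alternative only.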

Additional observations from a re-analysis of the deposited data

Results flagged for a closer look

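Of 40 groups of tumors (10 members in 4 groups), 11 had a library far from the others by Dixon's criterion. For normally distributed values chance flags about 1 in 20. CPM need not be so distributed, and that rate may not hold here. In D2.1 SCID-beige hosts, tumor 3 was high for Cxcl1 (66.9 CPM), Cxcl2 (8.14 CPM), Cxcl3 (9.05 CPM) and Ccr1 (64.9 CPM), and tumor 4 was high for Ccl2 (119 CPM). D2A1 SCID-beige tumor 4 was high for Cxcl2 (12.8 CPM) and Cxcl5 (18.7 CPM). In D2.1 BALB/c hosts, tumor 3 was high for Cxcl1 (13.7 CPM), tumor 2 was high for Cxcl5 (24.4 CPM) and tumor 4 was low for Ccr1 (10.9 CPM). D2A1 BALB/c tumor 2 was low for Cxcl1 (5.10 CPM). The members share libraries, so these are not independent.

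The difference between lines itself differed between culture and SCID-beige tumors for Ccl2 (-4.97 on the log2 scale), Ccl7 (-7.14, a fitted value with D2A1 cultures at 0) and Cxcl1 (-3.09), by a test of the interaction. Cultures and tumors were counted in separate tables, so setting and table cannot be told apart.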

How the results depend on the processing

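Over the alternatives, 1373 values kept their direction and side of the threshold, 47 lost a call, 11 gained one and 32 changed sign, none of the last a called value. For D2A1 hosts, the 2 members called became 1 with a fold threshold of 1 on the log2 scale, 0 with the replicate block, 1 in one fit of all tumors, 0 to 2 with 1 tumor left out and 0 without the 2 tumors with the highest Cxcl2 and Cxcl3. DESeq2 called 1 member between D2.1 hosts and 1 for line by host. Between lines in BALB/c, the replicate block called 6 members in place of 4, under a pairing that the labels do not give. Cause was not tested. With 1 library left out, sign changed between lines in BALB/c for Ccr2 (-0.28 to 0.060) and Cxcl3 (-0.56 to 0.73), and between lines in SCID-beige for Ccl2 (-0.013 to 0.94), Ccl7 (-0.39 to 0.015), Ccl12 (-0.028 to 0.81), Ccr1 (-0.15 to 0.40), Cxcl1 (-0.40 to 0.81) and Cxcl2 (-1.37 to 0.43). It also did between hosts for Ccr2 in D2.1 (-0.16 to 0.15) and for Ccl7 (-0.020 to 0.20) and Cxcl5 (-1.31 to 0.26) in D2A1, for Cxcl1 in line by host (-1.17 to 0.15), and for Ccl2 in D2.1 tumor against culture (-0.59 to 0.51). Without the 2 tumors, values between lines in SCID-beige were -0.087 for Ccl12, -0.15 for Ccr1 and -0.13 for Cxcl1, and between hosts 0.041 for Ccr2 in D2.1 and 0.26 for Cxcl5 in D2A1. With the replicate block they were -0.040 for Cxcl3 between lines in BALB/c, 0.17 for Ccr2 between D2.1 hosts, 0.52 for Cxcl3 between D2A1 hosts, -0.38 for Ccl2 in D2.1 and -1.96 for Cxcl3 in D2A1 tumor against culture. The length offset gave -0.064 for Cxcl1 and -0.59 for Cxcl3 in D2A1 tumor against culture. The replicate block also lost Ccr1 and Ccr2 between D2A1 hosts, Cxcl3 in D2.1 tumor against culture and Cxcl1 in the line by setting comparison (edgeR adjusted p = 0.47, 0.39, 0.13 and 0.070). Depth limited Cxcl2 and Cxcl3, with at most 53 counts in any BALB/c tumor.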
